A study of Mus musculus with 2 samples.

Results

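The genes described here are the core of the hedgehog pathway, namely the ligand Shh, the receptors Ptch1 and Smo, the transcription factors Gli1, Gli2 and Gli3, the co-receptors Boc, Cdon and Gas1, and the ligand-binding antagonist Hhip. They were chosen by name from the pathway, and every probe set that names 1 of them alone was read. All 10 genes were found among 18194 named genes, on 26 of the 45101 probe sets of the array. Expression was measured on 2 Affymetrix arrays with RNA of otocysts, the epithelial sacs from which the inner ear develops, of E10.5 mouse embryos. Otocyst cells were separated by FACS into an EGFP-positive and an EGFP-negative population, called EGFP+ and EGFP- cells here, each hybridised to 1 array. The embryos were heterozygous for Tg(ETAR-EGFP)14Imeg, a transgene that both populations carry. The labels place EGFP mainly in ventral and dorsomedial otocyst and report none in its dorsolateral part, so the populations stand for territories only as far as EGFP marks them, and the sources used here do not say how many embryos were pooled.

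Hedgehog ligands bind Ptch1, which otherwise holds Smo inactive, and active Smo turns the Gli proteins towards activation of transcription. Boc, Cdon and Gas1 help present the ligand to Ptch1. In the mouse embryo the signal raises transcription of Gli1, Ptch1 and Hhip and lowers that of Boc, Cdon and Gas1, so that cells near a ligand source differ from distant cells in both groups of genes. Notochord and floor plate release Shh beneath the developing ear, and mouse embryos without Shh lack ventral inner ear structures.

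Values are MAS5 signals, a linear intensity in which 1 number stands for a probe set. The 40th percentile of each array served as a floor, 10.4 in the EGFP+ and 12.4 in the EGFP- library. Ratios are EGFP+ over EGFP-, with signals under the floor raised to it, and a gene is represented by its brightest probe set (highest mean over both arrays). A difference of 2-fold, a log2 ratio of 1, was the limit for calling a gene higher in 1 library. There is 1 array per population, so no difference could be set against replicates, no p-value is given, and all statements describe these 2 libraries. As a partial error, the log2 ratios of probe sets that name the same gene had an SD of 0.41 at mean signals under 50, 0.33 between 50 and 200, and 0.25 above 200, over 5640 genes in all. This SD leaves out variation between embryos, sorts and hybridisations. The medians of all signals were 17.6 and 20.6 in EGFP+ and EGFP- cells.

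The labels call both populations epithelial, but the libraries differed in markers of cell types. None of 19 measured epithelial markers, the otic genes Oc90, Fbxo2 and Pax8 among them, was at the floor in either library. Oc90 was the only one of them with a ratio below 0, with 939.8 in EGFP+ and 1405.7 in EGFP- cells (log2 -0.58). Of these 19, 17 were at least 2-fold higher in EGFP+ cells and none in EGFP- cells, with a median log2 ratio of 1.36 and summed signals of 13822 against 6300. Of 17 mesenchyme markers, 14 were at least 2-fold higher in EGFP- cells and none in EGFP+ cells, with summed signals of 557.8 in EGFP+ and 6605 in EGFP- cells. The mesenchyme markers at the floor in EGFP+ cells only were Twist2, Tbx15, Col1a1, Tcf21, Meox1 and Meox2, and Alx1 was at the floor in both. Medians of the hindbrain, endothelial, leukocyte, erythroid and neural crest markers lay between -3.87 and -2.04, although 2 of 8 neural crest markers, Sox10 and Erbb3, passed 2-fold towards EGFP+ cells (log2 1.14 and 1.46). The median of 8 markers of cochleovestibular ganglion neurons was -0.40, but they divided. Ratios were above 0 for 3, Isl1, Neurod1 and Pou4f1, and below 0 for 5. Pou4f1 passed 2-fold towards EGFP+ cells (log2 1.16), and Prph, at the floor in EGFP+ cells, towards EGFP- cells (log2 -1.39). Neurod1 is also among the Shh-dependent otic genes below. A lower share of cells of a type and less RNA per cell cannot be told apart in such bulk samples, and the part of these other cells in the differences below was not tested.

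Promoter windows from RefSeq (GRCm38.p6, 250 bases before to 50 after the start) were at hand for 7 of the genes. Those of Ptch1 and Hhip, feedback genes that the signal induces, and of Gas1, a co-receptor gene that it lowers, are shown as examples of the 2 groups that the signal is known to move in opposite directions. They lie at chr13:63565686-63565985, chr8:80057959-80058258 and chr13:60177486-60177785, each on the minus strand and printed 5′ to 3′ along the gene. Capitals mark CCACCC, the core of the site that Gli proteins bind.
Ptch1: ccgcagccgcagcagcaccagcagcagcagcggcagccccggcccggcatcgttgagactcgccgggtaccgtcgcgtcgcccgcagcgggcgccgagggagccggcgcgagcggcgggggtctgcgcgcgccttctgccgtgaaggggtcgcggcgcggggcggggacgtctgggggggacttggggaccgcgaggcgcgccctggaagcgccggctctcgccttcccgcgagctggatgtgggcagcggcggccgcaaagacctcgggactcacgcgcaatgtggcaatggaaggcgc
Hhip: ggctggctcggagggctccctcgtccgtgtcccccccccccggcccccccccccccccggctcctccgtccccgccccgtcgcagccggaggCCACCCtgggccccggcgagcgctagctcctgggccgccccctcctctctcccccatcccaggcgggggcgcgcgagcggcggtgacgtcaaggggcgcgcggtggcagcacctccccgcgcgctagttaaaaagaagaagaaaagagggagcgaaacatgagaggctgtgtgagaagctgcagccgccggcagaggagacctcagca
Gas1: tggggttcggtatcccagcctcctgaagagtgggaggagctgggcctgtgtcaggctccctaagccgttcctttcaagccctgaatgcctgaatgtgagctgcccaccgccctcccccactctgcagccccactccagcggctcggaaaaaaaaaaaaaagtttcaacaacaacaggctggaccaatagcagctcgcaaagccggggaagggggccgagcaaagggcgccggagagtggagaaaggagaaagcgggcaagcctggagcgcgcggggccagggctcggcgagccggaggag
The full site GACCACCCA, searched on both strands, was in none of the 7 windows and in 0.253% of 32851 windows of the same length. The core CCACCC, also searched on both strands and contained in the full site, was in 4 of the 7 windows, those of Hhip, Gli2, Smo and Gli3, and in 31.5% of all windows. The Ptch1, Hhip and Gas1 windows had 76.3%, 73.7% and 62.3% G and C, against a median of 52.7% over all windows. A missing match says only that these letters are not in the window, and sites further away were not searched.

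The 10 genes did not move as a block. Gli1 was at least 2-fold higher in EGFP+ cells, Shh and Boc passed 2-fold towards EGFP- cells, and 7 genes were within 2-fold, Hhip among them with only a lower bound. Among all 13390 genes with a ratio, 2.90% were at least 2-fold higher in EGFP+ and 7.61% in EGFP- cells. Ratios were above 0 for 5 of the 10 genes and below 0 for 5, against 50.2% and 49.7% of all genes. The median log2 ratio of the 10 was -0.0024, and that of all genes was 0.0026. Grouped by role, the genes differed. Gli1, Ptch1 and Hhip, the genes that hedgehog signalling induces, had ratios above 0 as reported, with a median log2 ratio of 0.98. After centring on epithelial markers, Gli1 and Ptch1 were below 0, and the median of the 3 was -0.38. Both medians are the value of Hhip, a lower bound, so that centred Hhip could not be placed above or below 0. Of these 3, Gli1 passed 2-fold. Boc, Cdon and Gas1 had ratios below 0 at their brightest probe sets, with a median of -0.75. Of these 3, Boc passed 2-fold, and the ratio of Gas1, -0.22, was within the between-probe-set SD of 0.25. The gap between these medians was 1.73, a lower bound as well. This grouping was made with the values known, so its direction is a description. Centring shifts all genes alike and left the gap at 1.73.

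**Figure D1:**
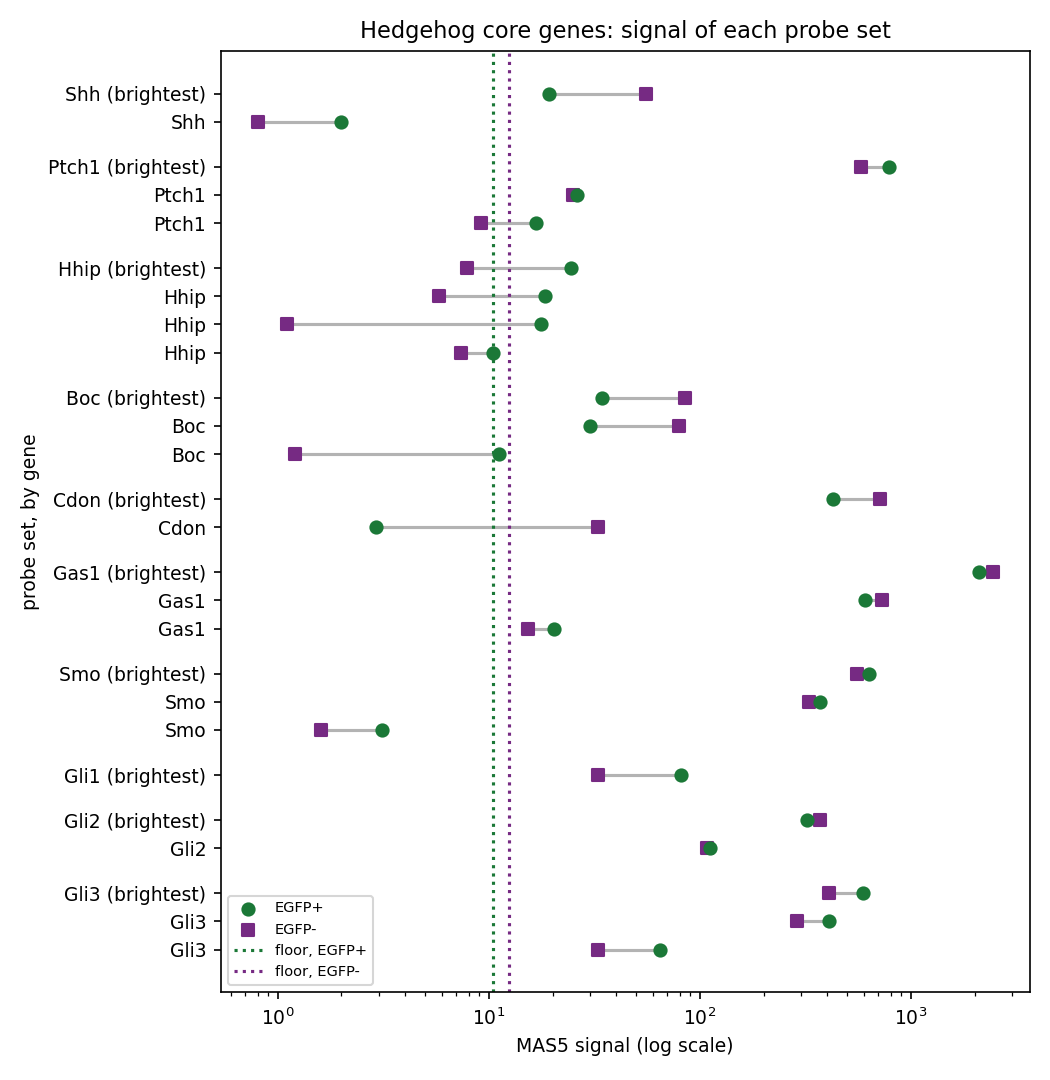
Each row is 1 of the 26 probe sets of the 10 hedgehog genes, with its MAS5 signal on a log axis in EGFP+ (green circles) and EGFP- cells (purple squares), and dotted lines mark the 2 floors. Green lies to the right for Gli1, Gli3 and the 4 Hhip probe sets, and to the left for the 2 bright probe sets of Boc and both of Cdon.

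The ligand gene Shh was dim. Its brighter probe set had a signal of 19.2 in EGFP+ and 55.5 in EGFP- cells, 2.89-fold higher in EGFP- cells (log2 ratio -1.53, between-probe-set SD 0.41 at this signal). The other probe set, at 2.0 and 0.8, was at the floor in both libraries and gave no ratio. Shh thus rests on 1 probe set, and a floor at the 60th percentile brought it to -0.74, no longer past 2-fold. Of 3519 genes with a mean signal within 2-fold of that of Shh, 15.8% were at least 2-fold higher in EGFP- cells, and 9.58% had a lower ratio than Shh. Of 5 floor plate and notochord markers with a ratio, none had a ratio above 0 and 2 passed 2-fold towards EGFP- cells, with summed signals of 95.3 in EGFP+ and 220.7 in EGFP- cells. Foxa2 and Foxa1, both on this marker list, had 9.9 and 4.0 in EGFP+ cells, at the floor. In EGFP- cells they had 20.3 and 15.6, near the floor of 12.4 there.

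Gli1, a transcriptional activator whose own transcription is the usual readout of the pathway, had a signal of 81.5 in EGFP+ and 32.7 in EGFP- cells. Both signals were above the floor, and the ratio of 2.49-fold (log2 1.32, between-probe-set SD 0.33 at this signal) was higher than that of 98.6% of all genes. Among 3906 genes of similar mean signal, 3.81% were at least 2-fold higher in EGFP+ cells. Gli1 has a single probe set, so that no second probe set bears on it. Its ratio lay next to the epithelial median of 1.36, at -0.041 after subtraction of that median. Relative to that median, Gli1 was thus not higher in EGFP+ cells, but the 19 epithelial markers themselves ranged between -0.58 and 1.77. Whether the share of epithelial cells accounts for the Gli1 ratio was not tested.

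Ptch1, the receptor that hedgehog signalling induces as a brake on itself, was bright in both libraries. Its brightest probe set had 790.0 in EGFP+ and 577.1 in EGFP- cells, 1.37-fold higher in EGFP+ cells (log2 0.45, between-probe-set SD 0.25). The other probe sets were dim, with 26.1 against 25.0 and 16.7 against 9.2, the last value being under the floor. All 3 leaned the same way, but none reached 2-fold. Ptch1 stood above 92.3% of 2286 genes of similar signal, while its ratio was 0.91 below the epithelial median.

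Hhip, a membrane protein that binds and sequesters hedgehog ligands, was near the floor. Its 4 probe sets had signals of 24.5, 18.5, 17.6 and 10.4 in EGFP+ cells. The same probe sets had 7.9, 5.8, 1.1 and 7.4 in EGFP- cells, all under the floor there. The highest signal of 27 bacterial control probe sets was 12.3 in EGFP+ and 9.0 in EGFP- cells. The controls were therefore exceeded by 3 of the 4 probe sets in EGFP+ cells and by none in EGFP- cells. Against the floor, Hhip was at least 1.98-fold higher in EGFP+ cells (log2 0.98, a lower bound). A floor at the 20th percentile brought the log2 value to 1.63. These values lie on either side of the epithelial median of 1.36, so Hhip could not be placed above or below it.

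**Figure D2:**
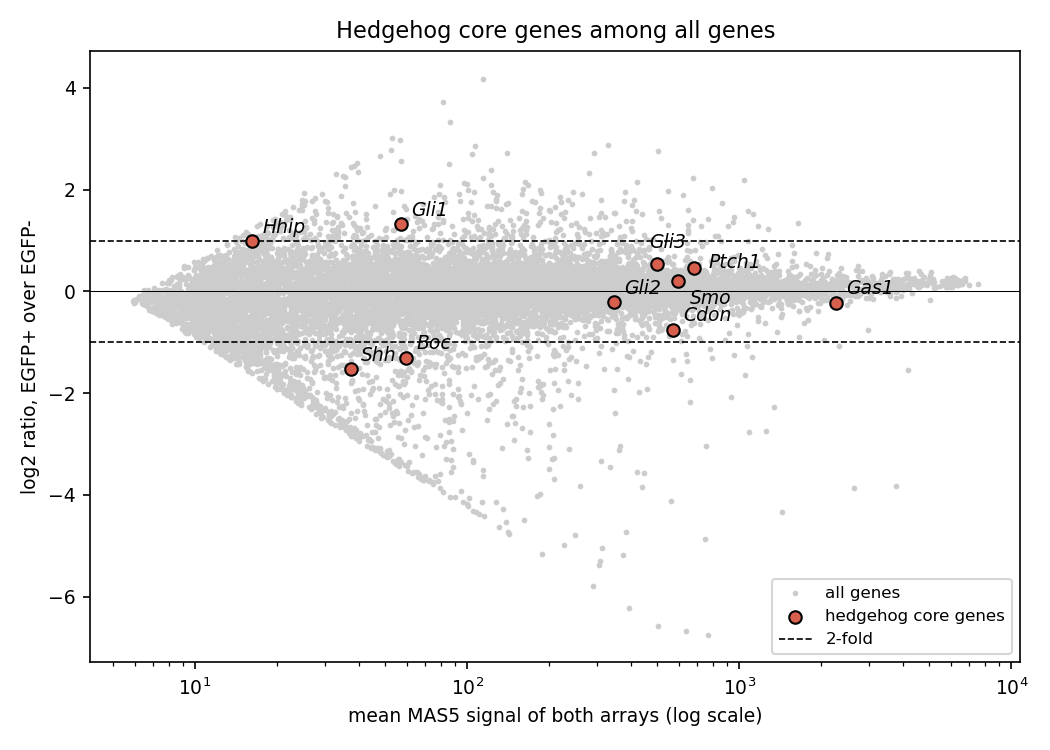
The log2 ratio of EGFP+ over EGFP- cells is plotted against the mean signal of both arrays (log axis) for all genes in grey and the 10 hedgehog genes in red, with dashed lines at 2-fold. Gli1 lies above the upper line, Hhip just under it, Shh and Boc lie below the lower line, and the brighter genes lie within 2-fold.

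Of the co-receptor genes, 1 passed 2-fold. Boc, an immunoglobulin superfamily receptor, had 34.3 in EGFP+ against 84.7 in EGFP- cells, 2.47-fold higher in EGFP- cells (log2 -1.30, between-probe-set SD 0.33). A second probe set agreed, with 30.1 against 79.4 (log2 -1.40). The remaining probe set had 11.1 in EGFP+ cells, under the highest bacterial control, and 1.2 in EGFP- cells, and was not read as a direction. Of 3951 genes of similar signal, 11.5% were at least 2-fold higher in EGFP- cells, and 8.45% had a lower ratio than Boc.

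Cdon encodes the closest relative of Boc. Its brighter probe set had 424.6 in EGFP+ and 713.6 in EGFP- cells, 1.68-fold higher in EGFP- cells (log2 -0.75, between-probe-set SD 0.25). Though within 2-fold, this ratio was lower than those of all but 3.17% of 2650 genes of similar signal. Its dimmer probe set had 2.9 in EGFP+ cells, under the floor, and 33.0 in EGFP- cells. The median over both probe sets was a log2 ratio of -1.21, past 2-fold.

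Gas1, a lipid-anchored co-receptor, was above the floor in both libraries on all 3 probe sets, with 2095.4, 605.8 and 20.4 in EGFP+ cells. In EGFP- cells they had 2445.5, 727.3 and 15.3. The bright pair gave log2 ratios of -0.22 and -0.26, about the between-probe-set SD of 0.25, and the dim one gave 0.42 the other way. Gas1 was therefore not separated between the libraries beyond this spread. The direction of Boc, Cdon and Gas1 at their brightest probe sets was the same in each of the 7 other settings tried. Only quantile normalization and the median over probe sets could have turned this direction. The floors and the leaving out of genes did not touch these ratios, and both centrings lower every ratio. The medians of the mesenchyme and hindbrain markers, -3.05 and -2.48, lay on the same side and below the ratio of each co-receptor gene.

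The signal transducers differed little. Smo, the membrane protein that passes the signal into the cell, had 635.0 and 368.5 in EGFP+ and 552.4 and 329.3 in EGFP- cells on its 2 measured probe sets (log2 0.20 and 0.16), below the SD of 0.25, and the remaining probe set was at the floor in both. Centred on hybridisation controls, its log2 ratio was -0.047. Gli2, the main activator in mouse, had 320.7 in EGFP+ and 369.9 in EGFP- cells (log2 -0.21), and its second probe set had 111.2 against 108.4 (log2 0.037). Neither gene was separated between the libraries beyond the spread of probe sets.

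Gli3, the main repressor in the absence of the signal, was higher in EGFP+ cells on each of its 3 probe sets. They had 590.9, 410.1 and 64.5 in EGFP+ cells. In EGFP- cells the same probe sets had 408.0, 289.2 and 32.8. The log2 ratios were 0.53, 0.50 and 0.98, the first being 2.15 times the SD at its signal, and none reached 2-fold. Gli3 stood above 93.5% of 2931 genes of similar signal and, like Ptch1, had a ratio below the epithelial median, by 0.82.

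**Figure D3:**
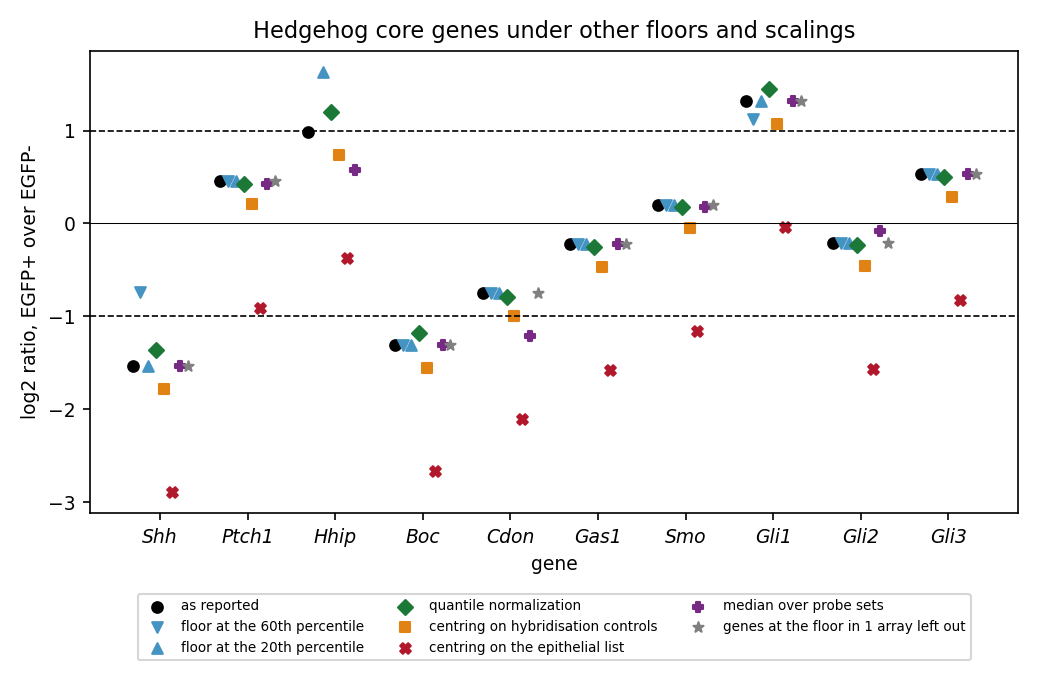
The log2 ratio of each hedgehog gene (EGFP+ over EGFP-) is shown as reported and under 7 other floors, scalings and probe set rules, with dashed lines at 2-fold. Centring on the epithelial list (red crosses) lowers every gene by 1.36. All 10 values are then below 0, Gli1 at -0.041, but that of Hhip is only a lower bound. Gli1, Ptch1 and, where it has a ratio, Hhip stay above Boc, Cdon and Gas1 in each setting. Neither centring can change this order, and the floors and the leaving out of genes do not touch Ptch1 or Gas1.

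Across the settings, 2 of which leave Hhip without a ratio, the gap between the medians of Gli1, Ptch1 and Hhip and of Boc, Cdon and Gas1 ranged between 1.54 and 2.07. The lowest of the first 3 exceeded the highest of the other 3 by at least 0.65. That margin is the distance between Ptch1 and Gas1, which only quantile normalization and the median over probe sets could change. The order does not hold at the level of single probe sets, where the dim Gas1 probe set (0.42) lay above a dim Ptch1 probe set (0.062). Of the 26 probe sets, 17 were above the floor in both libraries, 6 in 1 and 3 in neither. Of the 23 with a ratio, 14 were above 0 and 9 below it, among the 9 the dim Boc probe set, whose sign comes from the unequal floors. Past the limit, 1 was at least 2-fold higher in EGFP+ cells, that of Gli1, and 4 in EGFP- cells. These 4 are not separate genes, being the bright pair of Boc, the brighter one of Shh and the dim one of Cdon. The share over all probe sets is not given here.

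The rest of the pathway was read from a wider list of 44 genes, of which 41 were measured and 36 had a ratio. Its median log2 ratio was -0.13, with 1 gene at least 2-fold higher in EGFP+ cells, 4 at least 2-fold higher in EGFP- cells and 31 within 2-fold. Among all genes with a ratio, 2.90% and 7.61% passed 2-fold in these directions, and the list was not tested against them. Cytoplasmic regulators of the Gli proteins had the narrowest range of its 4 groups. All 10, among them Sufu and Kif7, were within 2-fold, with log2 ratios between -0.16 and 0.37. Csnk1a1, a kinase that acts after protein kinase A in the processing of Gli proteins, had 2180.6 in EGFP+ and 1954.7 in EGFP- cells, and Prkar1a, the regulatory subunit of protein kinase A, had 1092.8 against 1199.2.

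Among genes of ligand production and release, 1 of 7 with a ratio passed 2-fold, towards EGFP- cells. Ratios were below 0 for 6 of the 7, and the median of -0.58 was that of Scube2, which was at the floor in EGFP+ cells (4.1 against 15.6). Scube3, a secreted relative of Scube2, went the other way, with 234.6 in EGFP+ and 169.2 in EGFP- cells (log2 0.47). Disp1, which releases lipid-modified ligand from producing cells, had 38.3 in EGFP+ and 106.0 in EGFP- cells, 2.77-fold higher in EGFP- cells (log2 -1.47), and its second probe set was at -1.07. Ihh was at the floor in both libraries, and Dhh was next to it, with 13.2 in EGFP+ and 21.0 in EGFP- cells. At the membrane, 5 of 8 listed genes were measured and all were within 2-fold. Among them, Gpc3, a glypican that competes for ligand, had 565.5 against 787.0, and Lrp2, an endocytic receptor for Shh in the forebrain, had 48.4 against 32.8.

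Genes reported as hedgehog targets in other embryonic tissues divided. Sfrp1, which encodes a secreted Wnt antagonist, had 562.4 in EGFP+ and 238.4 in EGFP- cells, 2.36-fold higher in EGFP+ cells, with 5 probe sets between 0.57 and 1.24, the highest of which lies below the epithelial median of 1.36. Ccnd1, a G1 cyclin, had 2649 against 1587.5 (log2 0.74), with 3 probe sets between 0.74 and 1.09, the highest past 2-fold. Ccnd2 had 1982.4 against 2205.1 (log2 -0.15), with 7 probe sets between -0.45 and 0.38. Of the forkhead genes of mesenchyme on the list, 3 passed 2-fold the other way. Foxd1 had 22.0 in EGFP+ and 348.4 in EGFP- cells, 15.8-fold higher in EGFP- cells. Foxc2 had 10.1 against 139.9 and Foxf2 6.8 against 32.1, both at the floor in EGFP+ cells. Foxf1, above the floor in both libraries, had 18.7 against 20.4 (log2 -0.13). The ventral neural tube targets Nkx2-2 and Olig2 were at the floor in both libraries, as were Foxl1 and Osr1. Of the same tissue, Nkx2-9 and Nkx6-1, were at the floor in EGFP+ cells, at 4.6 and 3.6, and had 19.4 and 12.7 in EGFP- cells, the last value next to the floor. Of 4 measured otic genes that depend on Shh in the mouse, Otx1, Otx2 and Neurog1 passed 2-fold towards EGFP+ cells, and Neurod1 was just under that limit at its brighter probe set, with a log2 ratio of 0.98. Its other probe set was at 1.44, above the epithelial median of 1.36. Neurog1 had log2 ratios of 1.13 and 0.46, both below that median. Otx1 and Otx2 had 162.9 and 225.5 in EGFP+ cells and were under the floor in EGFP- cells, at 0.6 and 3.2.

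**Figure D4:**
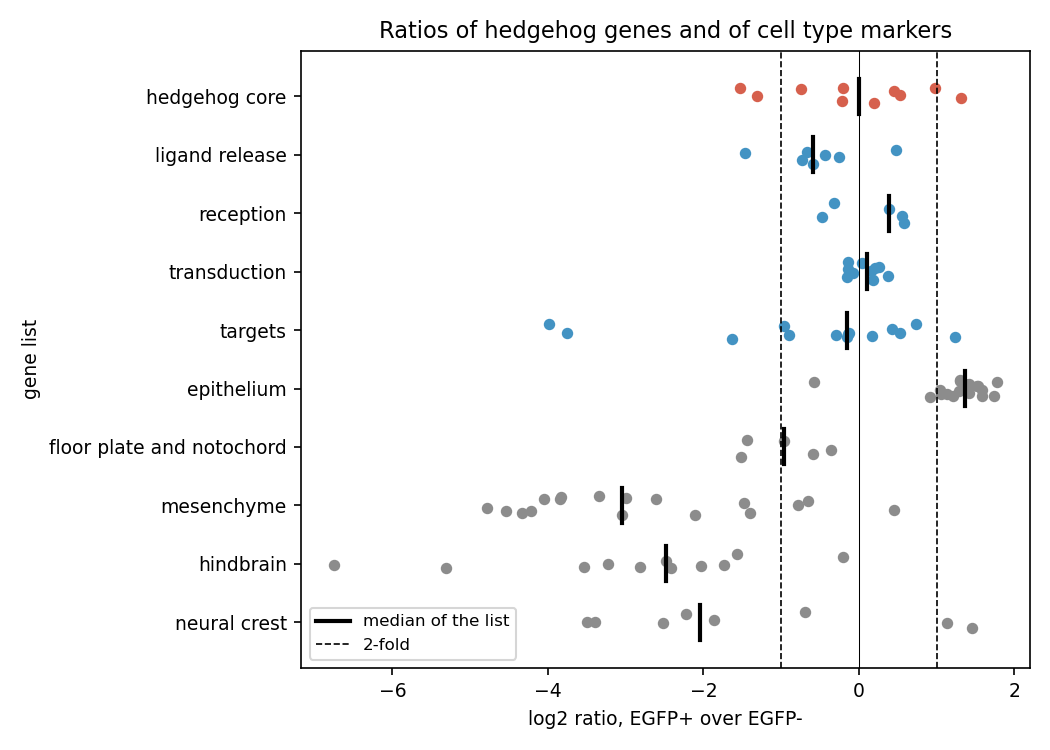
Each point is a gene, placed by its log2 ratio of EGFP+ over EGFP- cells, for the hedgehog core (red), the other hedgehog lists (blue) and marker lists of cell types (grey), with a bar at each list's median and dashed lines at 2-fold. The hedgehog core spreads from -1.53 to 1.32 around a median near 0, between the median of the epithelial markers on the right and those of the mesenchyme, hindbrain and neural crest markers on the left.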

How the data were processed

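The RNA of each population was measured on 1 array. The authors deposited 1 intensity for each probe set, a linear signal made with MAS5 5.0 per the submitters' processing notes. The scaling target and detection calls are not given in the sources used here, and the genome build is not either. Of 45101 probe sets, 34958 named 1 gene in the platform annotation, with symbols updated by gene identifier in the GRCm38.p6 RefSeq table, 932 named several genes and 9211 were unnamed here.

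Signals were raised to each array's 40th percentile, the brightest probe set stood for a gene, and log2 ratios were taken with Python 3.11.15, numpy 2.4.6 and pandas 2.3.3. Genes at the floor in both libraries, 4804 of 18194, have no ratio. The number of arrays limits the precision, and no test was run. The procedure was tested on simulated data. The members, gene lists, role groups, naming rule and 7 alternatives were chosen with earlier results of these data known. All 10 core genes were named. Of the wider list, those past 2-fold and the 4 brightest others were named by rule, and Sufu, Kif7, Ihh, Dhh, Scube2, Scube3, Gpc3, Lrp2, Foxf1, Nkx2-9, Nkx6-1, the genes at the floor and Neurod1 were named after their values were seen. Some listed genes were not analysed here.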

Additional observations from a re-analysis of the deposited data

How the results depend on the processing

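The 7 alternatives were floors at the 60th and 20th percentiles, quantile normalization, centring on hybridisation controls or on the epithelial list, the median over probe sets, and leaving out genes at the floor in 1 array. Of 68 single-gene ratios under these settings, 55 moved by less than the between-probe-set SD. Many of them could not move, since other floors and leaving out genes do not touch signals above those floors. Centring on hybridisation controls shifts every ratio by 0.248, just under the smallest SD of 0.249. The count is therefore no measure of stability. With the floor at the 60th percentile, 1 core gene, Boc, was at least 2-fold higher in EGFP- cells, since the floor raised the dim side of Shh. Under a floor at the 20th percentile, and after quantile normalization, 2 core genes, Gli1 and Hhip, were at least 2-fold higher in EGFP+ cells. Centring on the epithelial list gave 0 core genes at least 2-fold higher in EGFP+ and 6 in EGFP- cells, a core median of -1.36, a wider-list median of -1.49 and a Gli1 ratio of -0.041, well within its between-probe-set SD of 0.33. That setting lowers every gene by 1.36 and puts 84.2% of all genes at least 2-fold higher in EGFP- cells. Centring moved the median of all genes to -1.36 with the epithelial list and to -0.25 with the hybridisation controls. Over all genes, 388 were at least 2-fold higher in EGFP+ and 1019 in EGFP- cells, while quantile normalization gave 503 and 822, the hybridisation controls 225 and 1443, and the epithelial list 19 and 11273. The counts were 237 and 478 with the higher floor, 711 and 1954 with the lower one, and without genes at the floor in 1 array 325 and 632. No paired analysis was possible because each population has 1 array. Shh, Hhip and Gli1 are dim, and the floor limits what can be said of their size.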
